A study of Mus musculus with 2 samples.

Results

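A set of 10 genes of the Wnt pathway were read on both arrays: the secreted antagonists Sfrp1, Sfrp2, Sfrp5, Frzb and Dkk1, and the feedback genes and targets Axin2, Nkd1, Notum, Lef1 and Sp5. They were selected by pathway role, with their levels and differences on these arrays already known, so every value below is a description and carries no test. Their 13 probes, of 55681 for mouse transcripts, are those whose gene name on the array equals a member, and 10 of 34650 gene names are covered. Each group was measured on 1 array. EpiSC, or epiblast stem cells, came from mouse embryonic stem (ES) cells of the line E14Tg2A, strain 129/Ola, by adding FGF2 at 12 ng/mL and Activin A at 20 ng/mL in serum-free medium. ELA-EpiSC received both factors at those doses after the ES cells had first formed Epiblast-Like Aggregates (ELA). Before induction the line was kept on gelatin in serum with LIF. Both groups are 1 unmodified line, and each RNA was a pool of 3 experiments, so variation between cultures cannot be seen and no difference has a replicate check. For EpiSC, 1 label field (the source) instead speaks of Argonaute-bound RNA before differentiation, against a title, description and molecule that give total RNA of EpiSC, and the source of ELA-EpiSC likewise speaks of undifferentiated cells. The titles were followed, and every direction below rests on them.

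Wnt proteins bind Frizzled receptors with the co-receptors Lrp5 and Lrp6, which stops the destruction complex from degrading beta-catenin. Stabilized beta-catenin enters the nucleus and switches on genes through TCF/LEF factors. The pathway limits itself both outside and inside the cell. Secreted Frizzled-related proteins (Sfrp1, Sfrp2, Sfrp5 and Frzb) bind Wnt proteins, Dkk1 binds Lrp5 and Lrp6, and Notum removes the lipid that Wnt proteins need for activity. Axin2 is a scaffold of the destruction complex, and Nkd1 acts on Dishevelled. Lef1 is itself a DNA-binding partner of beta-catenin, and Sp5 is a zinc-finger factor induced by Wnt. In the early embryo Wnt signalling drives the primitive streak, and antagonists from the anterior visceral endoderm hold it back at the anterior side.

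Quantities are normalized log2 signal, and a difference is ELA-EpiSC minus EpiSC. The 4 Frizzled-related members were lower in ELA-EpiSC, with Sfrp5 lowest at a difference of -4.56. Dkk1 and the feedback genes Axin2, Nkd1, Notum and Sp5 were higher there on their brightest probe, with Sp5 highest at 2.93. The dimmer probes of Axin2 and Nkd1 had no settled direction. Lef1 had no settled direction. A gene was called past the threshold at an absolute difference of 1 with a mean level of at least 7.5, and a gene with several probes took its brightest one. All 10 members reached that level. Of them, 2 were past 1 and higher in ELA-EpiSC (Sp5 and Axin2), beside 4.54% of the 16649 genes that reached the level, and 3 were past 1 and higher in EpiSC (Sfrp5, Sfrp1 and Frzb), beside 4.46%. At 2.5, 1 member was higher in ELA-EpiSC (0.402% of all genes) and 1 in EpiSC (0.649%). Since the members were chosen on these values, nothing is read from those counts. The median difference was -1.05 over the 5 antagonists, 0.68 over the 5 feedback genes and 0.00 over all genes, whose central 95% lay between -1.32 and 1.37. Spots printed 10 times each, for 312 probes, gave a spot SD of 0.10 for a difference, which covers neither labelling nor culture.

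**Figure D1:**
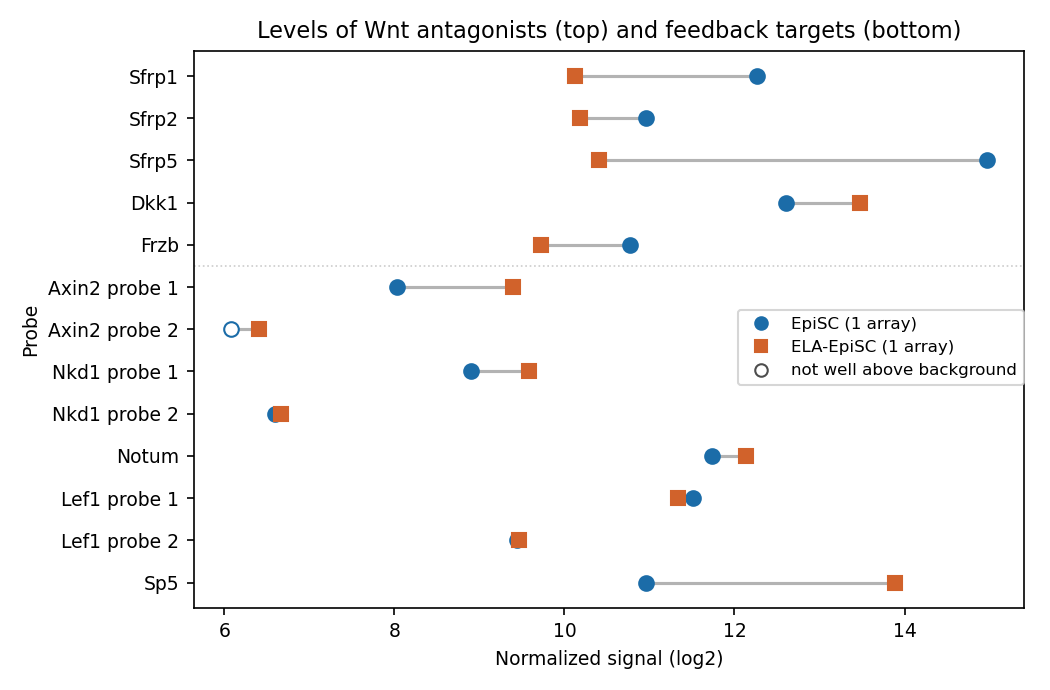
Normalized log2 signal (x axis) of each of the 13 probes (y axis) in EpiSC (circles) and ELA-EpiSC (squares), 1 array per group and no error bars; an open symbol marks a probe not well above background. The 4 Frizzled-related antagonists have the circle on the right, from 14.96 against 10.41 for Sfrp5 to 10.96 against 10.18 for Sfrp2, and Sp5 has the widest gap in the other direction, from 10.96 to 13.89.

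Sequences are shown first for the stretches of RNA that were read. All probes were 60 bases long, and the first 30 are printed 5′ to 3′ for the members with the widest difference in each direction and for the 3 genes whose 2 probes differed. All letters are in lower case because no part is singled out.

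Sfrp5, from base 1792 of the transcript: attattgctactgctgtggggccgctgatt

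Sp5, from base 2001: cagagctacagcatggtacgtttctgtaaa

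Axin2, brighter probe, from base 4196: cttggtacaataattattgtaattaagaga

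Axin2, dimmer probe, from base 1971: tcctgggggaacagattattattgctactc

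Nkd1, brighter probe, from base 1687: cactaatatttagccagccttcatgtagaa

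Nkd1, dimmer probe, from base 3995: taagagatcaaggtagcgcataaaggctta

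Lef1, brighter probe, from base 2581: actgcaagcgccgacttccaaaaagaaagc

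Lef1, dimmer probe, from base 2334: gtacaggtcccagaatgacagctgcctaca

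None of the 13 probes shared a run of 20 bases with a probe of another gene on the array. Their GC content ranged from 20.0% for the brighter Axin2 probe to 48.3% for the dimmer Axin2 probe and the dimmer Lef1 probe. The dimmer Lef1 probe spans 18162 bases of the mm9 genome and so crosses an intron, while the 12 others lie in 1 uninterrupted stretch. Whether they lie in coding sequence or in an untranslated region was not analysed here.

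The antagonist with the widest difference was Sfrp5, which is made in the anterior visceral endoderm and foregut endoderm of the embryo. Its spot gave 31343 units of intensity in EpiSC and 1474 in ELA-EpiSC, where local background was 26 and 22 units. After normalization the levels were 14.96 and 10.41, a difference of -4.56, or 23.6-fold lower in ELA-EpiSC. Of the 16649 genes, 6 had a more negative difference. Sfrp5 stayed well above background in ELA-EpiSC, so the gene was detected in both cultures. Its probe lies on the minus strand at chr19:42272509-42272568 (mm9).

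Sfrp1, which in the embryo is expressed in the anterior neural plate among other sites, was next. Its spot gave 4434 units in EpiSC and 1201 in ELA-EpiSC. Normalized levels were 12.27 and 10.12, a difference of -2.15, or 4.43-fold lower in ELA-EpiSC, with 153 genes more negative. The probe lies at chr8:24559438-24559497 (mm9, plus strand).

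Frzb, also called Sfrp3, was just past the threshold. Its signal was 1545 units in EpiSC and 899 in ELA-EpiSC, and its levels of 10.77 and 9.72 differed by -1.05, or 2.07-fold. Setting spike-in RNA equal on both arrays reduced that difference to -0.51. Sfrp2 gave 1773 and 1257 units, with levels of 10.96 and 10.18 and a difference of -0.78, under the threshold. Both are lower in ELA-EpiSC under every scaling tried, Sfrp2 by as little as -0.24 with spike-in scaling. The Frzb probe lies at chr2:80252582-80252641 on the minus strand and the Sfrp2 probe at chr3:83577864-83577923 on the plus strand (mm9).

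Dkk1 did not follow the 4 Frizzled-related members. Sfrp4, a Frizzled-related gene outside the set, was also higher in ELA-EpiSC, by 0.70. Dkk1 measured 5637 units in EpiSC and 12234 in ELA-EpiSC. Its levels of 12.60 and 13.47 gave a difference of 0.87, or 1.83-fold higher in ELA-EpiSC. That is under the threshold as reported, and 1.41 with spike-in scaling. Dkk1 is both an antagonist and a known transcriptional target of beta-catenin. Its probe lies at chr19:30621424-30621483 (mm9, minus strand).

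Spike-in RNA matters for these sizes because all 8 detected spike-in probes read lower for ELA-EpiSC, with differences of -0.86 to -0.26 and a mean of -0.54. Setting them equal adds that amount to every gene and moves the median of all genes from 0.00 to 0.54. Under that scaling the 4 Frizzled-related genes were still lower in ELA-EpiSC, at -4.02 for Sfrp5, -1.61 for Sfrp1, -0.51 for Frzb and -0.24 for Sfrp2. Relative to the median of all genes their differences are the same under either scaling.

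Sp5 was the feedback target with the widest difference. Its spot measured 1772 units in EpiSC and 16210 in ELA-EpiSC, over 28 and 24 units of background. Levels were 10.96 and 13.89, a difference of 2.93, or 7.62-fold higher in ELA-EpiSC. Of the 16649 genes, 26 had a higher difference. The probe lies at chr2:70315688-70315747 (mm9, plus strand).

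Axin2, a widely used transcriptional read-out of the pathway, was measured by 2 probes that gave different sizes. The brighter one, of 20.0% GC, gave 212 units in EpiSC and 710 in ELA-EpiSC. Its levels of 8.03 and 9.39 differed by 1.36, or 2.57-fold higher in ELA-EpiSC. The other probe gave 33.5 units in EpiSC, where it was not well above background, and 56.4 in ELA-EpiSC, where it was. Its levels were 6.08 and 6.40, a difference of 0.32. As reported, both probes read higher in ELA-EpiSC, though the mean of the 2, at 0.84, is under the threshold. Under another scaling the dimmer probe differed by -0.004, so its direction is not settled. They lie at chr11:108812034-108812093 and chr11:108803927-108803986 (mm9, plus strand).

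Nkd1 likewise had a brighter and a dimmer probe. The brighter one gave 403 units in EpiSC and 814 in ELA-EpiSC, with levels of 8.90 and 9.58 and a difference of 0.68. The dimmer one gave 62.4 and 71.6 units, with levels of 6.60 and 6.67 and a difference of 0.08, less than the spot SD of 0.11 at that level. Its sign was negative with 75th percentile scaling. These probes lie at chr8:91116160-91116219 and chr8:91118468-91118527 (mm9, plus strand).

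Notum, the secreted enzyme that inactivates Wnt proteins, gave 3027 units in EpiSC and 4926 in ELA-EpiSC. Levels of 11.73 and 12.14 differed by 0.41, or 1.32-fold, and the difference ranged from 0.34 to 0.94 over the scalings. Its probe lies at chr11:120515209-120515268 (mm9, minus strand). Lef1 differed little. Its brighter probe gave 2603 and 2811 units, levels of 11.51 and 11.33 and a difference of -0.17. Its dimmer probe gave 606 and 745 units, levels of 9.45 and 9.47 and a difference of 0.02. The brighter probe turned to 0.36 with spike-in scaling and to 0.05 with median scaling, so Lef1 has no settled direction. These probes lie at chr3:130926200-130926259 and chr3:130907851-130926012 (mm9, plus strand).

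**Figure D2:**
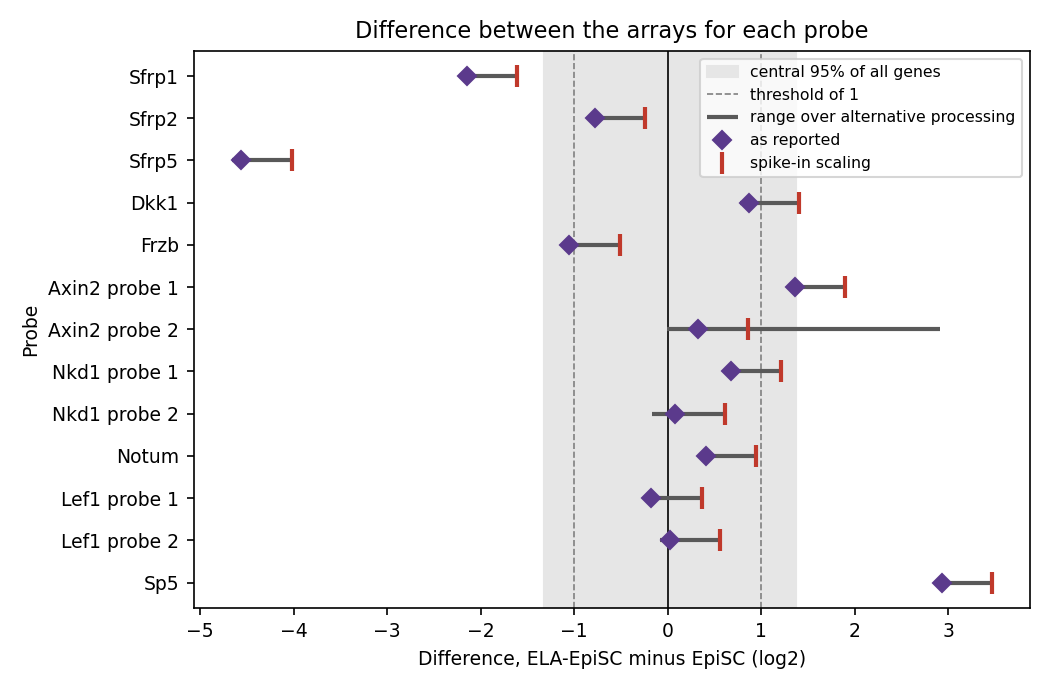
Difference in log2 signal between the arrays (x axis) for each probe (y axis): diamonds, values as reported; grey bars, range over the alternative processing settings; red ticks, spike-in scaling; shaded band, central 95% of the 16649 genes (-1.32 to 1.37); dashed lines, the threshold of 1. Sfrp5, Sfrp1 and Sp5 lie outside the band under every setting drawn, and the bars of both Lef1 probes cross 0.

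The starts of 8 members, 11 promoter windows in all, were read from a RefSeq table (GRCm38.p6), with Sfrp1 and Notum not among them. Each window holds 250 bases before and 50 after the start of the transcript. TCF/LEF factors bind DNA at short sites, and the letters CTTTGAA were searched on both strands, as were the letters CTTTGAT, the letters CTTTGTA and the letters CTTTGTT, with overlapping matches counted. At least 1 of these occurred in 3 of the 11 windows (Sp5, Dkk1 and 1 of 4 Lef1 starts), and in 16.9% of all 32851 windows in that table. Sp5 and Dkk1 held 2 matches each, as 1.94% of all windows held 2 or more. Windows of Sfrp2, Sfrp5, Frzb, Axin2 and Nkd1 held none of these letters. A match is a description of the letters and not a bound site, and binding was not measured here. The windows of Sp5 and Dkk1, which hold 2 matches each and were higher in ELA-EpiSC, and of Sfrp5, the member that was lowest there, are printed in the direction of transcription with matches in capitals.

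Sp5, chr2:70474673-70474972 (GRCm38.p6, plus strand): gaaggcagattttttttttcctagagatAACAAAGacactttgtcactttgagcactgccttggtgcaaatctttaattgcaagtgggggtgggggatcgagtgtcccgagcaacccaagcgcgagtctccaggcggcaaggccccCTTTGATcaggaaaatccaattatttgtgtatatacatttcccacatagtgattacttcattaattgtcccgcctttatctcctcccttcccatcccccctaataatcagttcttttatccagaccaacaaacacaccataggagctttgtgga

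Dkk1, chr19:30549447-30549746 (GRCm38.p6, minus strand): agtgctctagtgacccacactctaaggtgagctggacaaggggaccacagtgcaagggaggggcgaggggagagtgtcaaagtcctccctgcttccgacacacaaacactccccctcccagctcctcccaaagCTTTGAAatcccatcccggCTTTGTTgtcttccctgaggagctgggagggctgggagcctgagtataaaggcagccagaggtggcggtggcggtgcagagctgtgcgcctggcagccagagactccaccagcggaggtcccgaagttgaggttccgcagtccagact

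Sfrp5, chr19:42202203-42202502 (GRCm38.p6, minus strand): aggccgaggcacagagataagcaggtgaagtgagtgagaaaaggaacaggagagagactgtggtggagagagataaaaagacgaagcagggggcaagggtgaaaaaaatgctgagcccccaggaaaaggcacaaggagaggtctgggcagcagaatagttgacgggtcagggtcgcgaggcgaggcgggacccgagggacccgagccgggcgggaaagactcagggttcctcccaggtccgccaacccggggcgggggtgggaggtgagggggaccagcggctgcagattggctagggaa

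In Sp5 the matches begin 222 and 104 bases before the start, as CTTTGTT on the minus strand and CTTTGAT on the plus strand of the window. In Dkk1 they begin 117 and 98 bases before it, as CTTTGAA and CTTTGTT on the plus strand.

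Markers of other cell types also differed between the arrays. Of 10 visceral endoderm markers, 6 reached the level of 7.5, and 4 of these were past 1 and higher in EpiSC. They were Hnf4a, a transcription factor of that tissue (12.79 in EpiSC and 7.67 in ELA-EpiSC), Rbp4 (13.68 and 10.45), Amn (10.00 and 7.25) and Ttr. Ttr was at least 10.7-fold higher in EpiSC, where alone it was well above background. The 10 markers had a mean level of 9.04 in EpiSC and 7.42 in ELA-EpiSC. Afp, however, was near background on both arrays (6.26 and 6.47), and Cubn and Dab2 differed by 0.11 and 0.20. Apob, with a mean level under 7.5, was higher in ELA-EpiSC on its 2 probes, by 0.55 and 0.67. Among markers of the anterior visceral endoderm, Hhex differed by -1.73 and Lhx1 by -0.30, while Cer1, itself a secreted antagonist, differed by 0.01, Otx2 by 0.00 and Lefty1 by 0.49. The 6 definitive endoderm markers were all lower in ELA-EpiSC, with a median difference of -0.89 and Gata4 (-2.39) and Cxcr4 (-1.24) past 1. With spike-in scaling that median was -0.36, Cxcr4 was at -0.70 and Foxa2 at 0.09. Mean levels of that list were 12.92 and 11.85. In bulk RNA, fewer cells of a type and less RNA per cell cannot be told apart, and the part of these cell types in the Sfrp5, Sfrp1, Sfrp2 and Frzb differences was not tested.

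Some anterior neural and eye-field markers were also lower in ELA-EpiSC. Of 7, 3 reached the level, and Rax (12.87 in EpiSC and 6.91 in ELA-EpiSC) and Hesx1 (12.47 and 8.09) were past 1. Over all genes, 4.46% were past 1 and higher in EpiSC. In neither culture were Pax6 and Six6 well above background. The list had a mean level of 8.59 in EpiSC and 6.84 in ELA-EpiSC. Its part in the antagonist differences was not tested.

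In the other direction, 6 of 8 primitive streak markers were higher in ELA-EpiSC. All 8 reached the level, and 4 of them were past 1 and higher in ELA-EpiSC (4.54% of all genes). These were T (brachyury, 11.18 in EpiSC and 13.66 in ELA-EpiSC), Mixl1, Wnt3 and Fgf8. Mesp1 (-1.66) and Evx1 (-1.02) were past 1 in the other direction, although Evx1 was at -0.48 with spike-in scaling. The 3 probes of Fgf8 differed by 0.45 to 1.31. The mean level of the list was 11.15 in EpiSC and 11.82 in ELA-EpiSC. Of 8 mesenchyme and fibroblast markers, 6 reached the level and 2, Col1a1 (3.72) and Pdgfra (1.77), were past 1 and higher in ELA-EpiSC. The others at that level differed less, with Pdgfrb at 0.50, Twist1 at 0.43, Col1a2 at 0.08 and Thy1 at 0.05. That list had mean levels of 8.24 and 9.32. Whether cells of either type were present and contributed to the Sp5, Axin2 and Nkd1 differences was not tested.

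Pluripotent identity was checked on the same arrays. All 8 pluripotent and epiblast markers were well above background in both groups, with Pou5f1 (Oct4) at 14.27 in EpiSC and 14.46 in ELA-EpiSC and Fgf5 at 15.19 and 15.34. Of these, Pou3f1 (1.46) and Zic2 (1.68) were past 1 and higher in ELA-EpiSC (4.54% of all genes). Dnmt3b was lower in ELA-EpiSC on its 3 probes, at -0.84 on the brightest and -1.11 on another. Of 7 neural progenitor markers, 2 reached the level and only Nes (2.11) was past 1, and of 5 trophoblast markers 4 reached it, with Gata3 (-2.56) and Elf5 (-1.48) past 1. With spike-in scaling Elf5 was at -0.94. Detection was alike on both arrays, with 65.8% of probes well above background for EpiSC and 65.0% for ELA-EpiSC. No spot of a member was saturated.

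The rest of the pathway was read by role, from lists written with earlier results of these arrays known. For every list the number of genes that reached the level of 7.5 is given, and a gene can stand in more than 1 list. Among 19 Wnt ligands, 8 reached it, 5 were past 1 and higher in ELA-EpiSC, and 1 was past 1 and higher in EpiSC. Wnt4 differed by 2.77, Wnt3 by 1.42, Wnt5b by 1.30, Wnt8a by 1.07 and Wnt5a by -1.44. Wnt11 had levels of 9.10 in EpiSC and 10.60 in ELA-EpiSC. The median of the 8 was 1.19, and between 1.15 and 1.73 over the scalings. With spike-in scaling Wnt5a was at -0.91, and Wnt8a was as low as 0.997 under another scaling.

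Other known Wnt-responsive genes were mostly on the side of Sp5 and Axin2. Of 21, 14 reached the level. Of these, 6 were past 1 and higher in ELA-EpiSC (4.54% of all genes) and 1 was past 1 and higher in EpiSC (4.46%). Those with the widest differences were Wisp1 (3.97), a secreted matricellular protein, T (2.48), Dact1 (1.80), a Dishevelled-binding protein, Myc (1.47) and Tdgf1 (1.19), the Nodal co-receptor. A second Tdgf1 probe differed by 0.45. On their brightest probe, 4 of the 14 were higher in EpiSC. Ascl2, a factor of trophoblast and intestinal stem cells, was at -3.00. Under the threshold were Nkd2 (-0.75), Rnf43 (-0.72) and Zcchc12 (-0.64). A second Nkd2 probe was higher in ELA-EpiSC, at 0.89, so Nkd2 has no settled direction. The median of the 14 was 0.72 and lay between 0.72 and 1.26 over the scalings. The 7 genes past the threshold kept their direction under all scalings tried.

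Further antagonists and Wnt-binding proteins did not share 1 direction. Of 17, 10 reached the level. Over all genes, 4.54% were past 1 and higher in ELA-EpiSC and 4.46% were past 1 and higher in EpiSC. Shisa3 (3.09) and Kremen2 (1.72), a receptor through which Dkk1 acts, were past 1 and higher in ELA-EpiSC. Shisa2 (-2.33) and the glypicans Gpc3 (-1.96) and Gpc4 (-1.54), cell-surface proteoglycans that bind Wnt proteins, were past 1 and higher in EpiSC. A second Gpc4 probe differed by -0.51. The median of the 10 was -0.03, with a range of -0.20 to 0.51 over the scalings, so it has no settled sign. Sfrp4, the remaining Frizzled-related gene, differed by 0.70, in the other direction from the 4 of its family above, and Dkk3, with a mean level under 7.5, by 0.87.

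Few genes of signal reception and transduction were past 1. Over all genes, 4.54% were past 1 and higher in ELA-EpiSC and 4.46% were past 1 and higher in EpiSC. Nothing is read from counts this small beside those shares. Of 20 receptors and regulators of receptor turnover, 17 reached the level, and Fzd10 (2.61) was past 1 in ELA-EpiSC while Fzd5 (-1.54) and Fzd3 (-1.02) were past 1 in EpiSC. Spike-in scaling brought Fzd3 to -0.49, and a second Fzd5 probe differed by -0.79. Of 16 genes of the destruction complex and Dishevelled, 15 reached the level and 1, Amer1 (-1.08), was past 1, at -0.55 with spike-in scaling. Ctnnb1, which codes for beta-catenin, had levels of 15.12 and 15.07, and Gsk3b, the kinase that marks it for degradation, differed by 0.37. Of 13 TCF factors and nuclear partners, 12 reached the level and 0 were past 1 on their brightest probe, with no replicated test possible. A dimmer probe was past 1 and higher in EpiSC for Tle2 (-1.68, against -0.01 on the brightest), Tcf7l2 (-1.11, against -0.46) and Aes (-1.01, against -0.44). Tcf7l1, the TCF repressor of pluripotent cells, differed by 0.34. Medians of these 3 lists were 0.04, 0.07 and -0.07, and the sign of the second and of the third depended on the scaling. Averaging the probes of a gene moved the third to -0.22. In the list of secretion factors and Rspondins, 4 of 6 reached the level and Porcn, the acyltransferase that lipidates Wnt proteins, was past 1 at -1.55.

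**Figure D3:**
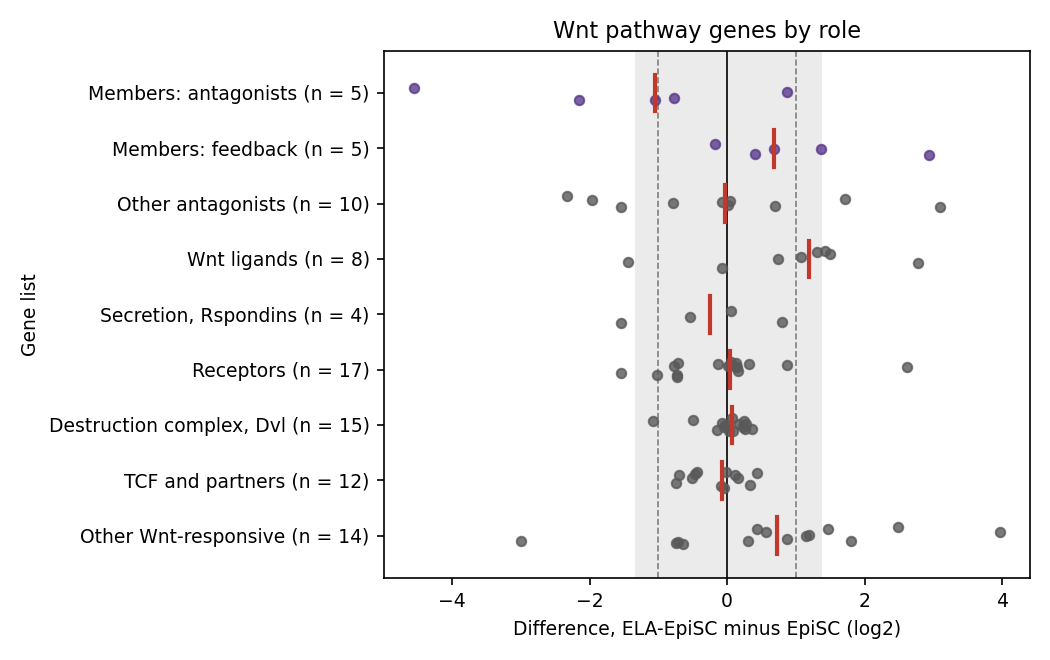
Difference in log2 signal, ELA-EpiSC minus EpiSC (x axis), for genes of each Wnt pathway list (y axis) with a mean level of at least 7.5: each point is 1 gene, the red bar is the median, n is the number of genes, dashed lines mark the threshold of 1 and the shaded band the central 95% of all genes; vertical scatter within a row carries no information. The antagonist members lie mostly to the left (median -1.05), Wnt ligands (median 1.19) and other Wnt-responsive genes (median 0.72) mostly to the right, and TCF factors and partners lie within 1 of 0 on the brightest probe of each gene, which is the one plotted, although dimmer probes of Tle2, Tcf7l2 and Aes were past 1.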

How the data were processed

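RNA of EpiSC and ELA-EpiSC was hybridized by the authors to Agilent SurePrint G3 mouse arrays, 1 per group, after labelling of 50 ng with Cy3. Deposited scanner files hold spot intensity from Feature Extraction (version 10.7.3.1 per the file headers, whereas 9.1 stands in the submitters' processing notes), with mm9 probe positions. The authors also deposited log2 values per probe, background-corrected and quantile normalized with limma, used here as an alternative. Mean spot signal was corrected by normexp (offset 50, limma 3.58.1 in R 4.3.3). Control spots were dropped, as were outliers among the other spots, 158 for EpiSC and 117 for ELA-EpiSC. Arrays were then quantile normalized, and repeated spots were averaged. An offset makes differences of dim probes smaller. Detection of a probe required the well-above-background flag on a share of 0.5 or more of its spots. Code was tested on simulated data.

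Groups followed the sample titles. With 1 array per group no test was possible, and precision is limited by the number of arrays. Members, lists, thresholds and the 16 alternatives (background, scaling, normalization, probe rule and threshold) were chosen with earlier results of these data known. All members were named, with pathway genes past 1 (at most 5 per list and direction) and Ctnnb1, Tcf7l1 and Gsk3b. With 2 arrays, no gene could be named for a similar pattern. Marker genes and Sfrp4 and Dkk3 were named after their values were seen.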

Additional observations from a re-analysis of the deposited data

How the results depend on the processing

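No paired analysis was possible because there were only 2 arrays, 1 for each group. Of the members, 9 kept their direction under the 13 changes of background, scaling, normalization and probe rule, and Lef1 did not. Sfrp5 (-4.67 to -4.02), Sfrp1 (-2.24 to -1.61) and Sp5 (2.88 to 3.47) also stayed past 1. The 2 members past 1 and higher in ELA-EpiSC became 3 with median scaling (Dkk1 joined) and 4 with spike-in scaling (Dkk1 and Nkd1 joined). Their number was 1 with the mean of all detected probes, 1 at a threshold of 2.5 and 4 at 1.5-fold. The 3 past 1 and higher in EpiSC became 2 with median or spike-in scaling (Frzb dropped out), 4 at 1.5-fold and 1 at 2.5. Over all genes, the counts of 756 and 742 became 2621 and 321 with spike-in scaling, where the same amount is added to every gene. The median over the members, 0.12, was 0.34 with median scaling, 0.65 after spike-in scaling and, averaging probes, -0.077 over 9 members, since Axin2 then had a mean level of 7.48, under the minimum. Signal near background limits the dimmer Axin2 and Nkd1 probes, and the dimmer Axin2 probe alone ranged from -0.004 to 2.91.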
